A study of Homo sapiens with 16 samples.

Results

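The chaperones of the endoplasmic reticulum (ER) and the components of the unfolded protein response were followed across 4 lines of HCT116, a human colorectal carcinoma cell line, in low and ambient oxygen. The set was a list of 34 genes named for their roles, drawn up with earlier results of these data known, out of 23669 genes in the count table, and 33 of them passed the filter on low counts. The remaining one, DERL3, had 1 read in 1 shNT hypoxia library and none in the other 15 libraries, so it was not tested. The 4 lines were cells in which HIF1A is genetically deleted (HIF1A-/-, called HIF1A-null here), cells stably expressing an shRNA against CDK8 (shCDK8), cells stably expressing an shRNA against TIP60 (shTIP60, the product of KAT5), and cells stably expressing a non-targeting shRNA (shNT). Each line was kept for 24 h in hypoxia (1% O2) or in normoxia (21% O2), with 2 libraries of poly(A) RNA per group and 16 in all. HIF1A codes for the subunit of the transcription factor HIF-1 that is stabilised in low oxygen, CDK8 is a kinase of the Mediator complex, and TIP60 is a histone acetyltransferase. Each altered line stands alone for its target and the labels name no shRNA in the HIF1A-null cells, so effects of a line, a clone or a vector cannot be told apart from those of the target.

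Proteins of the secretory pathway fold in the ER with the help of chaperones and disulfide isomerases, and those that fail are returned to the cytosol for degradation (ER-associated degradation). When unfolded proteins build up, 3 membrane sensors respond: ERN1 (IRE1), which splices the mRNA of the transcription factor XBP1, ATF6, which is cleaved to release a transcription factor, and EIF2AK3 (PERK), which slows translation and raises the factor ATF4. Together these branches are known to raise transcription of chaperones, degradation factors and export factors. Gene counts show transcript levels of XBP1 but not its splicing.

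The promoters of many of these genes are known for ER stress elements, and they are shown because they are the sequence feature these genes are known to share. Windows of 300 bases (250 before to 50 after the annotated start; RefSeq, GRCh38.p14) were at hand for 30 of the 34 genes, some of which have several annotated starts, and a gene was counted for a motif where at least 1 of its windows held it. The windows of HSPA5, the main Hsp70 chaperone of the ER (gene strand, chr9:125241294-125241593, minus), of HERPUD1, a membrane scaffold of ER-associated degradation (chr16:56931892-56932191, plus), and of SDF2L1, a partner of ER Hsp40 proteins (chr22:21642052-21642351, plus), are given 5′ to 3′, with the fixed bases of a match in capitals.
HSPA5: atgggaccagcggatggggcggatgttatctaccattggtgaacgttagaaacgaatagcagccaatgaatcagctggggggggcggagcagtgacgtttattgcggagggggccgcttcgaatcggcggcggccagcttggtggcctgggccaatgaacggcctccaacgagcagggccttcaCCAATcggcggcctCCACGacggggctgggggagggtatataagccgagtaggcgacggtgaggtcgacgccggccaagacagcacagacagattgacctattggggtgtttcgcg
HERPUD1: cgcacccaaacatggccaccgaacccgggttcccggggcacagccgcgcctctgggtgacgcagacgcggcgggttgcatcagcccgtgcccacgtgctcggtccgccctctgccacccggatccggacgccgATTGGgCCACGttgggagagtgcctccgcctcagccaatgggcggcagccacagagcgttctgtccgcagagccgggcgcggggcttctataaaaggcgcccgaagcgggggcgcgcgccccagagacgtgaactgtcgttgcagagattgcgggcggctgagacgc
SDF2L1: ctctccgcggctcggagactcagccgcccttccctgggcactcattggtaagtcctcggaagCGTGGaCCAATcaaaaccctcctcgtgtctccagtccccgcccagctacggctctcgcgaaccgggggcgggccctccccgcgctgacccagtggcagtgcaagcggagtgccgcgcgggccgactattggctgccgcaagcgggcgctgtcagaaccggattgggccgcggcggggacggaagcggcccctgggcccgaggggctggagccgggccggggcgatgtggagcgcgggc
In HSPA5 the capitals mark the ER stress element (ERSE), searched as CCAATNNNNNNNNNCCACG, whose first base lay 66 bases before the start. In HERPUD1 and, on the opposite strand, in SDF2L1 they mark ERSE-II, searched as ATTGG, 1 base of any kind and CCACG, at 117 and 188 bases before the start.

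Both strands of all windows were searched for exact matches of the fixed bases, so near matches are neither marked nor counted. ERSE was found in 7 of the 30 genes of the set (23.3%) and in 25 of 27305 genes with a window (0.0916%, the set included). ERSE-II was found in 3 of the 30 genes (10%) against 19 of 27305 (0.0696%). The other matches, written in the direction of the motif with the fixed bases in capitals, show how the spacer differs between genes.
HSP90B1, first: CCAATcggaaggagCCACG
HSP90B1, second: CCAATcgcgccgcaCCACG
CALR: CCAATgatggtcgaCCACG
CANX: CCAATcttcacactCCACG
PDIA6: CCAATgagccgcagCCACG
CRELD2: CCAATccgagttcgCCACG
XBP1: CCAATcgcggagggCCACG
HYOU1: ATTGGaCCACG
The matches lay at chr12:103930216-103930234 and chr12:103930321-103930339 (HSP90B1), chr19:12938384-12938402 (CALR), chr5:179698778-179698796 (CANX), chr2:10812853-10812871 (PDIA6), chr22:49918554-49918572 (CRELD2) and chr22:28800603-28800621 (XBP1). The HYOU1 window held this ERSE-II match at 2 places, chr11:119057274-119057284 and chr11:119057380-119057390, which begin 79 and 185 bases before the start. The unfolded protein response element TGACGTGG was found in HYOU1, where it overlapped an ERSE-II match, and in DNAJC10 and TXNDC5, 3 of 30 genes (10%) against 253 of 27305 (0.927%). The core of the hypoxia response element, ACGTG, which also lies inside TGACGTGG, was present for 16 of 30 genes (53.3%) against 24.9% of all genes with a window. The end pieces of the ER stress element alone were common, with CCAAT for 86.7% and CCACG for 73.3% of the set's 30 genes against 39.7% and 42.1% of all genes with a window. A match is a description of the letters and no measure of binding.

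Library totals ran from 26620086 to 39401494 counts, and the set took 1.51 to 1.92% of counts in HIF1A-null hypoxia, 0.914 to 1.13% in the other hypoxia libraries and 0.727 to 0.858% in normoxia. Levels are given as CPM, counts scaled to the size of each library after trimmed mean of M-values (TMM) normalisation. The epithelial markers EPCAM (129 to 215 CPM) and CDH1 (25.0 to 209 CPM) and the intestinal marker CDX2 (6.27 to 30.6 CPM) were present in every library. The other intestinal markers, VIL1 and LGALS4, stayed at or below 0.339 and 0.797 CPM. Leukocyte, endothelial and fibroblast markers (PTPRC, CD3E, PECAM1, CDH5, COL1A2, DCN) stayed at or below 0.138 CPM and CD14 at or below 0.645 CPM, while COL1A1 was at 21.5 to 81.9 CPM. Of genes that mark secretory cells, MUC2 reached 3.56 CPM and TFF3 had no read. The targeted genes followed the labels with 1 exception in degree. KAT5 was at 22.0 and 21.0 CPM in shTIP60 hypoxia and 20.2 and 19.1 CPM in shTIP60 normoxia, against 87.5 and 93.6 CPM in shNT hypoxia and 84.8 and 86.7 CPM in shNT normoxia. CDK8 was at 5.84 and 5.45 CPM in shCDK8 hypoxia and 5.77 and 6.80 CPM in shCDK8 normoxia, against 27.9 and 28.3 CPM in shNT hypoxia and 27.3 and 24.8 CPM in shNT normoxia. HIF1A was at 13.02 and 14.1 CPM in HIF1A-null normoxia, against 107 and 108 CPM in shNT normoxia. In hypoxia, however, HIF1A-null libraries held 40.1 and 57.6 CPM of HIF1A reads, against 61.2 and 70.5 CPM in shNT. The part of HIF1A that was deleted is not given in the sources used here, so a count over the whole gene checks the deletion only in part. In bulk RNA, fewer cells carrying a transcript and less transcript per cell cannot be told apart.

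Hypoxia raised most of the set in HIF1A-null cells, led by HERPUD1 and HSPA5. For 13 genes the signed log2 response there was higher than in shNT, and some of these fell in shNT. By edgeR's quasi-likelihood test with Benjamini-Hochberg adjustment at 0.05, 27 of 33 genes rose in hypoxia in HIF1A-null cells and the other 6 did not pass, where 38.0% of all 15520 genes tested changed and 18.9% rose. In shCDK8 cells 14 rose and 1 fell, where 24.8% of all genes changed and 13.8% rose. In shTIP60 cells 18 rose and 2 fell, where 39.2% of all genes changed, 19.4% rose and 19.8% fell. In shNT cells 18 rose and 7 fell, where 40.7% of all genes changed, 20.7% rose and 20.0% fell. The median log2 fold change (hypoxia over normoxia) of the 33 genes was 0.80 in HIF1A-null, 0.35 in shCDK8, 0.52 in shTIP60 and 0.43 in shNT, and that of all genes tested lay within 0.02 of 0 in each line. Without TMM factors the median of all genes shifted by -0.28 in HIF1A-null, -0.16 in shCDK8, -0.23 in shTIP60 and -0.20 in shNT, and 19 genes of the set then rose and 2 fell in HIF1A-null, 6 rose and 4 fell in shCDK8, 14 rose and 6 fell in shTIP60, and 12 rose and 8 fell in shNT. Of all 15520 genes, 1485 then rose and 5141 fell in HIF1A-null, 1447 rose and 3085 fell in shCDK8, 1899 rose and 4859 fell in shTIP60, and 2116 rose and 4605 fell in shNT. Leaving out 1 library lowered the count of the set by over 1.5 times in shCDK8 (either normoxia library or hypoxia library B). In shTIP60 it did so for normoxia library A. The counts over all genes tested also fell without these normoxia libraries.

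**Figure D1:**
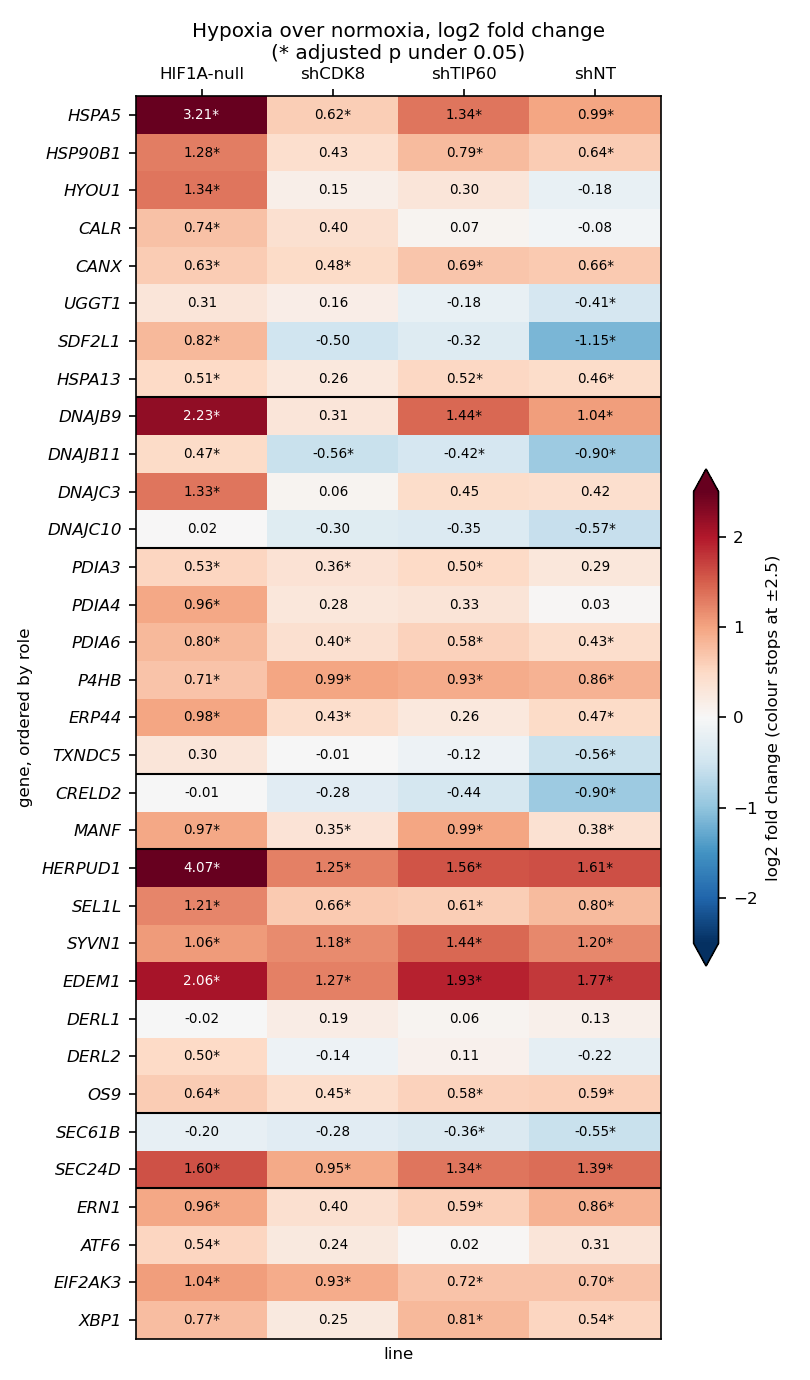
Log2 fold change of hypoxia over normoxia (cell number and colour) for the 33 genes tested, in rows ordered by role, in HIF1A-null, shCDK8, shTIP60 and shNT cells, with an asterisk where the adjusted p was under 0.05. The HIF1A-null column is red almost throughout and reaches 4.07 for HERPUD1, while SDF2L1, DNAJB11 and CRELD2 are blue in shNT.

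In all 4 lines 12 genes rose: HSPA5, CANX, PDIA6, P4HB, MANF, HERPUD1, SEL1L, SYVN1, EDEM1, OS9, SEC24D and EIF2AK3. Beside HSPA5 and MANF, several of these calls rested on single libraries of their own line. In shCDK8, CANX lost its call without any 1 of 4 libraries (adjusted p up to 0.232), PDIA6 (0.171), SEL1L (0.109) and OS9 (0.152) without any 1 of 3, and SEC24D without either of 2 (0.0711). The call of SEL1L in shTIP60 was lost without any 1 of 4 libraries (0.0881), that of CANX in HIF1A-null without normoxia library A or hypoxia library B (0.0985), and that of PDIA6 in shNT without normoxia library B or hypoxia library A (0.067). A further 8 rose in HIF1A-null cells and passed as higher in none of the other 3 lines: HYOU1, CALR, SDF2L1, DNAJB11, DNAJC3, PDIA4, DERL2 and ATF6. For 6 of these 8 the signed response in HIF1A-null was also higher than that of shNT. For CALR (adjusted p = 0.12) and ATF6 (adjusted p = 0.505) the difference did not pass. The shares of all genes tested that rose in all 4 lines, or in HIF1A-null and none of the other 3, were not counted. The 12 and the 8 are therefore lists of genes and no result about the set as a whole. DERL1, a channel component of ER-associated degradation, passed in none of the 4 lines, with log2 fold changes of -0.02 in HIF1A-null, 0.19 in shCDK8, 0.06 in shTIP60 and 0.13 in shNT.

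Among the major lumenal chaperones, HSPA5 had 4930.2 and 8009.5 CPM in HIF1A-null hypoxia, against 692 and 706 CPM in HIF1A-null normoxia. In the other lines it had 847 and 1219 CPM in hypoxia against 649.9 and 699 CPM in normoxia in shCDK8, 1779 and 1946 CPM against 719 and 748 CPM in shTIP60, and 1086 and 1385 CPM against 639 and 604 CPM in shNT. All 8 hypoxia libraries lay above all 8 normoxia libraries, and both HIF1A-null hypoxia libraries lay above every other library. The log2 fold change was 3.21 ± 0.22 in HIF1A-null (SE, here and for all log2 values; adjusted p = 8.64e-08), 0.62 ± 0.20 in shCDK8 (adjusted p = 0.0373), 1.34 ± 0.21 in shTIP60 (adjusted p = 1.16e-04) and 0.99 ± 0.21 in shNT (adjusted p = 0.00124). The response in HIF1A-null exceeded that in shNT by 2.22 ± 0.29 (adjusted p = 1.72e-04). In shCDK8 the call was lost without any 1 of 7 libraries, and without its own hypoxia library B the log2 fold change was 0.33 (adjusted p = 0.387).

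HYOU1, a large Hsp70 relative that acts as nucleotide exchange factor for HSPA5, had 494 and 587 CPM in HIF1A-null hypoxia against 233 and 196 CPM in HIF1A-null normoxia. It had 285 and 295 CPM in hypoxia against 295 and 228 CPM in normoxia in shCDK8, 345 and 362 CPM against 284 and 291 CPM in shTIP60, and 195 and 166 CPM against 215 and 194 CPM in shNT. The groups were apart in HIF1A-null and in shTIP60 and overlapped in shCDK8 and shNT. The log2 fold change was 1.34 ± 0.15 in HIF1A-null (adjusted p = 8.94e-06), and 0.15, 0.30 and -0.18 in shCDK8, shTIP60 and shNT, none of which passed. The difference between HIF1A-null and shNT was 1.51 ± 0.21 (adjusted p = 2.88e-04).

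SDF2L1, named after its values were seen because it moved in opposite directions, had 211 and 212 CPM in HIF1A-null hypoxia against 147 and 93.2 CPM in HIF1A-null normoxia. It had 74.3 and 78.0 CPM in hypoxia against 114 and 101 CPM in normoxia in shCDK8, 59.4 and 58.4 CPM against 80.8 and 66.2 CPM in shTIP60, and 49.6 and 37.2 CPM against 117 and 75.2 CPM in shNT. Hypoxia libraries were the higher ones in HIF1A-null and the lower ones in the other 3 lines, without overlap in any line. SDF2L1 rose in HIF1A-null (0.82 ± 0.21, adjusted p = 0.00702) and fell in shNT (-1.15 ± 0.22, adjusted p = 6.17e-04), a difference of 1.96 ± 0.31 (adjusted p = 6.43e-04). The rise in HIF1A-null lost its call without normoxia library B of that line (log2 0.53, adjusted p = 0.081). Its log2 fold changes of -0.50 in shCDK8 and -0.32 in shTIP60 did not pass.

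The other lumenal chaperones moved less. HSP90B1, the ER member of the Hsp90 family, rose by 1.28 in HIF1A-null, 0.79 in shTIP60 and 0.64 in shNT on the log2 scale, and its 0.43 in shCDK8 did not pass. Its call in shTIP60 was lost without normoxia library A (adjusted p = 0.0568), and that in shNT without either normoxia library or hypoxia library B (up to 0.172). The lectin chaperone CANX rose by 0.63 in HIF1A-null, 0.48 in shCDK8, 0.69 in shTIP60 and 0.66 in shNT, and its lumenal relative CALR rose by 0.74 in HIF1A-null alone of the 4 comparisons (adjusted p = 0.0254). CALR lost that call without HIF1A-null normoxia library B or without either HIF1A-null hypoxia library (adjusted p up to 0.179). HSPA13, another Hsp70-like protein, rose in HIF1A-null (0.51), shTIP60 (0.52) and shNT (0.46). These calls of HSPA13 were lost without normoxia library A or hypoxia library B in HIF1A-null (adjusted p up to 0.293), without any 1 of the 4 shTIP60 libraries (0.176), and in shNT without any 1 of 9 libraries (0.429). UGGT1, the glucosyltransferase that returns misfolded glycoproteins to the lectin cycle, fell in shNT (-0.41, adjusted p = 0.019) and did not pass in HIF1A-null (0.31), a difference of 0.72 ± 0.18 (adjusted p = 0.015). That difference lost its call without library A of shNT normoxia, library B of shNT hypoxia or library B of HIF1A-null hypoxia (adjusted p up to 0.0739), and the fall in shNT without either of those shNT libraries (up to 0.173). As a group, 7 of 8 lumenal chaperones rose in HIF1A-null, 2 in shCDK8 and 4 in shTIP60, while in shNT 4 rose and 2 fell.

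**Figure D2:**
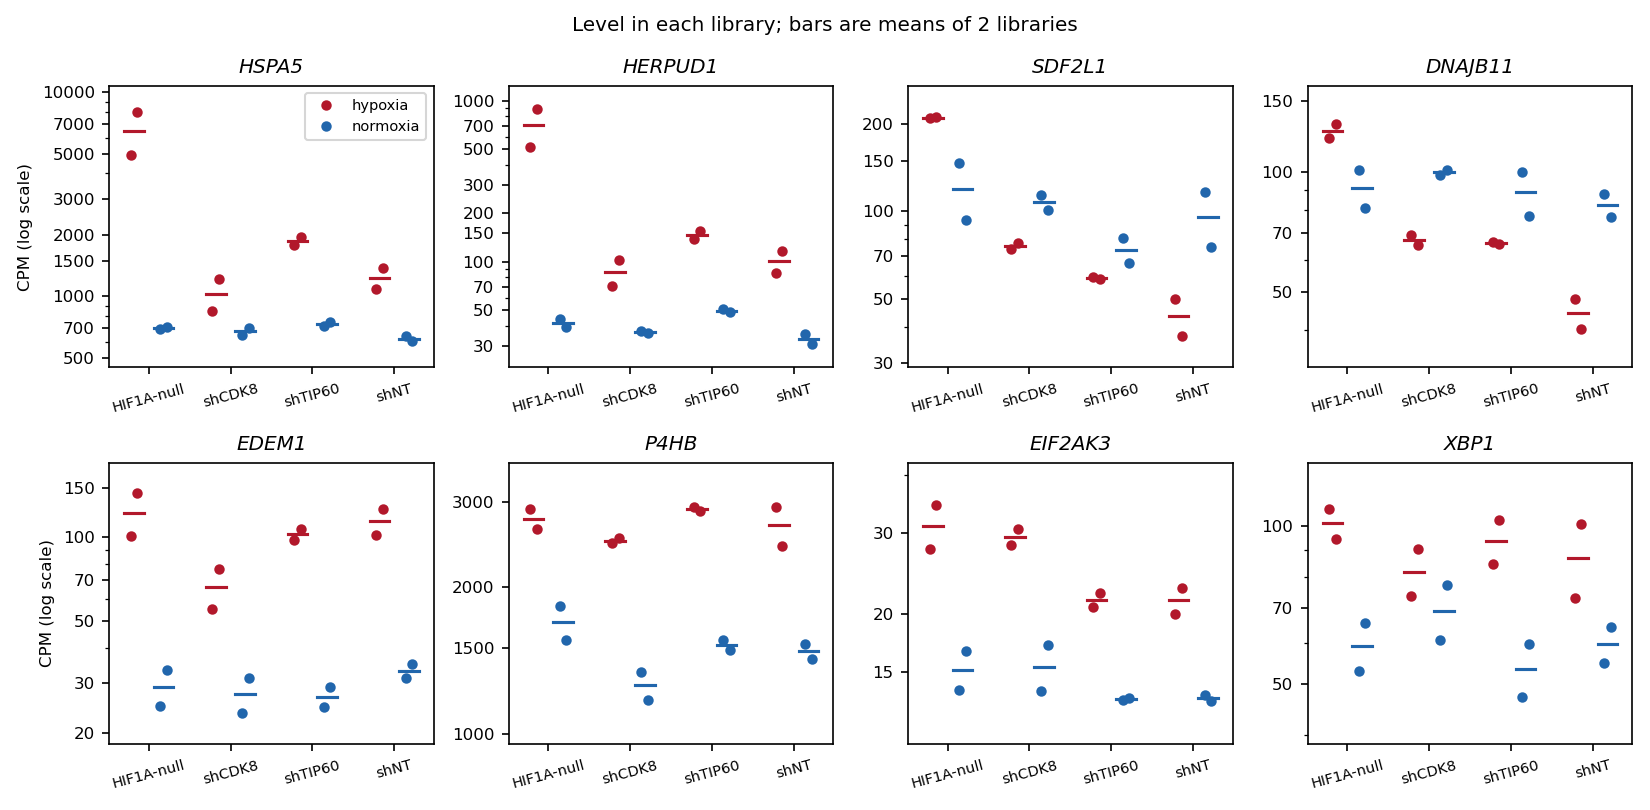
CPM on a log axis in each library for 8 genes of the set, with hypoxia in red and normoxia in blue for HIF1A-null, shCDK8, shTIP60 and shNT, and bars at the means of 2 libraries. HSPA5 and HERPUD1 stand highest in HIF1A-null hypoxia, SDF2L1 and DNAJB11 are higher in hypoxia in HIF1A-null and lower in the other lines, and EDEM1 and P4HB are higher in hypoxia in every line.

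Hsp40 cochaperones deliver clients to HSPA5. DNAJB11 (ERdj3) had 121 and 131 CPM in hypoxia against 101 and 81.1 CPM in normoxia in HIF1A-null, 69.4 and 65.4 CPM against 98.1 and 101 CPM in shCDK8, 66.5 and 66.0 CPM against 99.9 and 77.6 CPM in shTIP60, and 47.9 and 40.4 CPM against 88.0 and 77.1 CPM in shNT. Hypoxia libraries were above normoxia libraries in HIF1A-null and below them in the other 3 lines. DNAJB11 rose in HIF1A-null (0.47 ± 0.15, adjusted p = 0.0176) and fell in shCDK8 (-0.56, adjusted p = 0.0106), shTIP60 (-0.42, adjusted p = 0.0311) and shNT (-0.90 ± 0.15, adjusted p = 1.74e-04). The difference between HIF1A-null and shNT was 1.38 ± 0.21 (adjusted p = 5.00e-04). The call in HIF1A-null was lost without normoxia library B or hypoxia library B of that line (adjusted p 0.147 and 0.0984) and without TMM factors (0.21, adjusted p = 0.236). The calls in shCDK8 and shTIP60 were also lost without single libraries of their own lines (adjusted p up to 0.0943 in shCDK8 and 0.355 in shTIP60).

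DNAJC3 (p58IPK, an inhibitor of PERK as well as a cochaperone) had 82.4 and 141 CPM in hypoxia against 39.3 and 49.6 CPM in normoxia in HIF1A-null, 44.6 and 50.7 CPM against 41.7 and 49.5 CPM in shCDK8, 64.6 and 61.8 CPM against 46.7 and 45.5 CPM in shTIP60, and 54.7 and 64.7 CPM against 43.5 and 45.8 CPM in shNT. The HIF1A-null hypoxia libraries were above all others, and in shCDK8 the groups overlapped. DNAJC3 rose by 1.33 ± 0.20 in HIF1A-null (adjusted p = 1.00e-04), its 0.42 ± 0.20 in shNT did not pass (adjusted p = 0.101), and the difference was 0.91 ± 0.28 (adjusted p = 0.0354). That difference was 0.47 without HIF1A-null hypoxia library B, and it lost its call without any 1 of 9 libraries. DNAJB9 (ERdj4) rose by 2.23 in HIF1A-null, 1.44 in shTIP60 and 1.04 in shNT. Its difference between HIF1A-null and shNT was 1.19 ± 0.39 (edgeR adjusted p = 0.0484) and lost its call without any 1 of 14 libraries. Without HIF1A-null hypoxia library B the difference was 0.62. DNAJC10 (ERdj5, a disulfide reductase) fell in shNT (-0.57, adjusted p = 0.00454) and passed in no other line; without shNT hypoxia library A that call was lost (adjusted p = 0.0532). The DNAJB9 call in shNT was lost without shNT normoxia library A or hypoxia library B (up to 0.111).

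Of the 6 disulfide isomerases, 5 rose in HIF1A-null, 4 in shCDK8, 3 in shTIP60 and 3 in shNT, where 1 fell. PDIA4 had 648 and 766 CPM in hypoxia against 380.5 and 346 CPM in normoxia in HIF1A-null, 374 and 391 CPM against 331 and 298 CPM in shCDK8, 373 and 386 CPM against 315 and 290.0 CPM in shTIP60, and 335 and 279.7 CPM against 309 and 293 CPM in shNT. Its HIF1A-null hypoxia libraries were above all others and its shNT groups overlapped. PDIA4 rose by 0.96 ± 0.14 in HIF1A-null (adjusted p = 5.79e-05) with 0.03 in shNT, a difference of 0.93 ± 0.19 (adjusted p = 0.00407). TXNDC5 had 41.6 and 39.4 CPM in hypoxia against 38.2 and 27.4 CPM in normoxia in HIF1A-null, 33.2 and 35.2 CPM against 36.97 and 31.9 CPM in shCDK8, 31.4 and 27.8 CPM against 31.7 and 32.9 CPM in shTIP60, and 29.0 and 19.6 CPM against 38.2 and 33.7 CPM in shNT. The shNT hypoxia libraries were below their normoxia libraries (-0.56, adjusted p = 0.0218), the 0.30 in HIF1A-null did not pass (adjusted p = 0.201), and the difference was 0.87 ± 0.26 (adjusted p = 0.0313). That difference lost its call without any 1 of 5 libraries (adjusted p up to 0.122), and the fall in shNT without normoxia library A or hypoxia library B (up to 0.252). Reads of TXNDC5 may be shared with the readthrough gene BLOC1S5-TXNDC5 and with BMP6 on the other strand.

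P4HB, the founding disulfide isomerase and also the beta subunit of collagen prolyl 4-hydroxylase, was chosen after its values were seen as a gene whose response was alike in size in all lines. It had 2899 and 2634 CPM in hypoxia against 1831 and 1559 CPM in normoxia in HIF1A-null, 2463 and 2529 CPM against 1341 and 1178 CPM in shCDK8, 2926 and 2870.0 CPM against 1564 and 1488 CPM in shTIP60, and 2931 and 2436 CPM against 1533 and 1424 CPM in shNT. Every hypoxia library was above every normoxia library, with log2 fold changes of 0.71 in HIF1A-null, 0.99 in shCDK8, 0.93 in shTIP60 and 0.86 in shNT. The difference between HIF1A-null and shNT was -0.15 ± 0.19 and did not pass. PDIA6 rose in all 4 lines (0.80 in HIF1A-null, 0.40 in shCDK8, 0.58 in shTIP60, 0.43 in shNT), and ERP44, which retains client proteins in the early secretory pathway, rose in HIF1A-null (0.98), shCDK8 (0.43) and shNT (0.47). The ERP44 calls were lost without any 1 of 3 shCDK8 libraries (adjusted p up to 0.161) and, in shNT, without normoxia library A or hypoxia library B (up to 0.0651). PDIA3, the isomerase that works with the lectin chaperones, rose in HIF1A-null (0.53), shCDK8 (0.36) and shTIP60 (0.50), and its 0.29 in shNT did not pass. The PDIA3 call in shCDK8 was lost without any 1 of 8 libraries (adjusted p up to 0.212). PDIA3 has the antisense neighbour ELL3 and the pseudogenes PDIA3P1 and PDIA3P2, and PDIA6 overlaps ATP6V1C2 on the other strand, so a part of their reads is uncertain. Pseudogenes are also named for HSPA5 (HSPA5P1) and XBP1 (XBP1P1), and their effect on the counts was not tested.

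The secreted ER stress proteins went different ways. MANF, a factor retained in the ER and released under stress, had 173 and 183 CPM in hypoxia against 89.3 and 92.9 CPM in normoxia in HIF1A-null, 103 and 119 CPM against 81.9 and 92.5 CPM in shCDK8, 118 and 133 CPM against 64.1 and 62.4 CPM in shTIP60, and 102 and 106 CPM against 84.2 and 76.1 CPM in shNT. Hypoxia libraries were above normoxia libraries in every line, and MANF rose by 0.97 in HIF1A-null, 0.35 in shCDK8, 0.99 in shTIP60 and 0.38 in shNT. The call in shCDK8 (adjusted p = 0.0485) was lost without any 1 of 13 libraries (up to 0.341), and that in shNT without any 1 of 3 shNT libraries (up to 0.154). The difference between HIF1A-null and shNT was 0.59 ± 0.17 (adjusted p = 0.0309) and lost its call without any 1 of 8 libraries (adjusted p up to 0.135). CRELD2 had 74.3 and 66.8 CPM in hypoxia against 82.3 and 59.9 CPM in normoxia in HIF1A-null, 65.0 and 55.1 CPM against 79.6 and 66.4 CPM in shCDK8, 38.9 and 37.2 CPM against 55.5 and 48.0 CPM in shTIP60, and 38.5 and 24.7 CPM against 66.7 and 51.4 CPM in shNT. Its groups overlapped in HIF1A-null (-0.01) and were apart, with hypoxia lower, in the other lines, where it fell in shNT (-0.90 ± 0.20, adjusted p = 0.00233). The difference was 0.89 ± 0.29 (adjusted p = 0.0439) and lost its call without any 1 of 11 libraries (adjusted p up to 0.195).

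In ER-associated degradation, 6 of 7 genes tested rose in HIF1A-null and 5 in each of the other lines. HERPUD1 (GRCh37 chr16:56966054-56978776, plus strand, 8 exons) had 519 and 889 CPM in HIF1A-null hypoxia against 44.4 and 39.2 CPM in HIF1A-null normoxia. It had 71.2 and 103 CPM in hypoxia against 37.1 and 36.0 CPM in normoxia in shCDK8, 139 and 155 CPM against 50.6 and 48.8 CPM in shTIP60, and 85.6 and 117 CPM against 35.5 and 30.9 CPM in shNT. Every hypoxia library was above every normoxia library, and the HIF1A-null hypoxia libraries were far above the rest. The log2 fold change was 4.07 ± 0.25 in HIF1A-null (adjusted p = 2.40e-08), 1.25 ± 0.23 in shCDK8 (adjusted p = 9.11e-04), 1.56 ± 0.23 in shTIP60 (adjusted p = 6.68e-05) and 1.61 ± 0.23 in shNT (adjusted p = 4.63e-05). The difference between HIF1A-null and shNT was 2.46 ± 0.32 (adjusted p = 1.50e-04), the largest of the 33 genes.

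The ubiquitin ligase SYVN1 (HRD1) and its partner SEL1L rose in all lines, by 1.06 and 1.21 in HIF1A-null, 1.18 and 0.66 in shCDK8, 1.44 and 0.61 in shTIP60, and 1.20 and 0.80 in shNT, as did the lectin OS9 (0.64, 0.45, 0.58 and 0.59 in the same order of lines). EDEM1, a mannosidase-like protein that marks glycoproteins for degradation, was chosen after its values were seen. It had 100.5 and 143 CPM in hypoxia against 25.0 and 33.5 CPM in normoxia in HIF1A-null, 55.2 and 77.0 CPM against 23.6 and 31.3 CPM in shCDK8, 97.6 and 107 CPM against 24.8 and 29.0 CPM in shTIP60, and 101 and 126 CPM against 31.4 and 35.1 CPM in shNT. Hypoxia libraries were above normoxia libraries throughout, with log2 fold changes of 2.06 in HIF1A-null, 1.27 in shCDK8, 1.93 in shTIP60 and 1.77 in shNT, and the difference between HIF1A-null and shNT (0.29 ± 0.29) did not pass. SYVN1 overlaps MRPL49 on the other strand, which reached 231 CPM, so its count is uncertain without a known strand setting. DERL2, a relative of DERL1, had 29.0 and 35.1 CPM in hypoxia against 21.8 and 23.6 CPM in normoxia in HIF1A-null, 17.9 and 21.0 CPM against 18.5 and 24.2 CPM in shCDK8, 24.4 and 26.3 CPM against 21.4 and 25.6 CPM in shTIP60, and 19.0 and 21.1 CPM against 22.0 and 24.6 CPM in shNT. The HIF1A-null hypoxia libraries were the highest, with a rise of 0.50 (adjusted p = 0.023) that lost its call when normoxia library A or hypoxia library B of that line was left out (adjusted p up to 0.189), and the difference from shNT was 0.72 ± 0.23 (adjusted p = 0.0433), which lost its call without any 1 of 13 libraries (adjusted p up to 0.155).

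Of the translocon and export genes, SEC24D, a cargo adaptor of the COPII coat, had 108 and 136 CPM in hypoxia against 33.8 and 46.7 CPM in normoxia in HIF1A-null, 48.6 and 59.1 CPM against 24.1 and 31.7 CPM in shCDK8, 75.6 and 91.0 CPM against 31.9 and 33.97 CPM in shTIP60, and 49.0 and 80.4 CPM against 22.1 and 27.3 CPM in shNT. Hypoxia libraries lay above all normoxia libraries, with log2 fold changes of 1.598 in HIF1A-null, 0.95 in shCDK8, 1.34 in shTIP60 and 1.39 in shNT. SEC61B, a subunit of the protein-conducting channel, had 61.7 and 59.6 CPM in hypoxia against 70.8 and 68.9 CPM in normoxia in HIF1A-null, 63.3 and 65.1 CPM against 73.4 and 82.5 CPM in shCDK8, 42.2 and 49.7 CPM against 59.9 and 58.1 CPM in shTIP60, and 42.8 and 42.9 CPM against 63.8 and 62.2 CPM in shNT. It was lower in hypoxia in every line and fell in shTIP60 (-0.36, adjusted p = 0.0222) and shNT (-0.55, adjusted p = 0.00138), while -0.20 in HIF1A-null and -0.28 in shCDK8 did not pass. The SEC61B call in shTIP60 was lost without either shTIP60 normoxia library or hypoxia library A (adjusted p up to 0.233).

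All 4 transcripts of the sensors and XBP1 rose in HIF1A-null, and 3 of them (ERN1, EIF2AK3 and XBP1) in shNT, with no response difference between the lines past the threshold. EIF2AK3 (PERK) had 27.7 and 34.5 CPM in hypoxia against 13.7 and 16.6 CPM in normoxia in HIF1A-null, 28.2 and 30.5 CPM against 13.6 and 17.1 CPM in shCDK8, 20.7 and 22.2 CPM against 12.99 and 13.1 CPM in shTIP60, and 20.0 and 22.8 CPM against 13.3 and 12.9 CPM in shNT. Every hypoxia library was above every normoxia library, and EIF2AK3 rose by 1.04 in HIF1A-null, 0.93 in shCDK8, 0.72 in shTIP60 and 0.70 in shNT. ERN1 (IRE1) had 26.3 and 26.3 CPM in hypoxia against 13.7 and 13.2 CPM in normoxia in HIF1A-null, 16.1 and 16.003 CPM against 13.6 and 10.7 CPM in shCDK8, 13.9 and 13.4 CPM against 8.12 and 9.98 CPM in shTIP60, and 19.5 and 17.7 CPM against 10.1 and 10.4 CPM in shNT. It was higher in hypoxia in each line and rose in HIF1A-null (0.96), shTIP60 (0.59) and shNT (0.86), while 0.40 in shCDK8 did not pass (adjusted p = 0.0619). Its call in shTIP60 was lost without shTIP60 normoxia library A (adjusted p = 0.101).

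ATF6 had 73.9 and 87.8 CPM in hypoxia against 51.2 and 60.3 CPM in normoxia in HIF1A-null, 48.6 and 54.3 CPM against 39.6 and 47.6 CPM in shCDK8, 77.1 and 66.4 CPM against 69.6 and 71.7 CPM in shTIP60, and 55.7 and 70.3 CPM against 50.3 and 51.2 CPM in shNT. Its groups overlapped in shTIP60, and it rose in HIF1A-null (0.54, adjusted p = 0.0101), a call lost without normoxia library A or hypoxia library B of that line (adjusted p up to 0.108). XBP1 had 108 and 94.7 CPM in hypoxia against 53.1 and 65.4 CPM in normoxia in HIF1A-null, 73.5 and 90.3 CPM against 60.6 and 77.3 CPM in shCDK8, 84.6 and 103 CPM against 47.3 and 59.6 CPM in shTIP60, and 72.9 and 101 CPM against 54.9 and 64.4 CPM in shNT. Its groups overlapped in shCDK8 (0.25, adjusted p = 0.37), and it rose in HIF1A-null (0.77), shTIP60 (0.81) and shNT (0.54). The call in shNT was lost without shNT normoxia library A or shNT hypoxia library B (adjusted p up to 0.334), and those in HIF1A-null and shTIP60 without normoxia library A of each line (adjusted p = 0.0565 and 0.0587). The differences between HIF1A-null and shNT were 0.33 ± 0.22 for EIF2AK3, 0.10 ± 0.21 for ERN1, 0.23 ± 0.21 for ATF6 and 0.23 ± 0.27 for XBP1.

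The response differences were tested directly, in all 3 lines against shNT. In HIF1A-null the signed log2 hypoxia response was higher than that of shNT for 13 of 33 genes, and the other 20 did not pass. Of all genes, 16.4% differed, 7.53% with a higher and 8.92% with a lower response. Among the 13, UGGT1, TXNDC5 and CRELD2 fell in shNT and were not called in HIF1A-null. The median difference over the 33 genes was 0.51 on the log2 scale, beside -0.02 over all genes tested. The 13 genes were HERPUD1, HSPA5, SDF2L1, HYOU1, DNAJB11, DNAJB9, PDIA4, DNAJC3, CRELD2, TXNDC5, UGGT1, DERL2 and MANF. Of these, HSPA5, CRELD2, HERPUD1, SDF2L1 and HYOU1 carried an ERSE or ERSE-II match in the promoter windows, and HSP90B1, CALR, CANX, PDIA6 and XBP1 carried one with no difference past the threshold. Without TMM factors the response was higher for 9 genes of the set and lower for 0, beside 924 and 1534 of all genes. With TMM factors, fewer than 13 passed without shNT normoxia library A or either shTIP60 normoxia library. The same held without HIF1A-null normoxia library B or HIF1A-null hypoxia library B. Over all genes tested the count also fell without shNT normoxia library A and without either shTIP60 normoxia library, so such losses were not particular to the set. At an unadjusted p under 0.05 there were 5 genes of the set in shCDK8 and 4 in shTIP60, beside 1695 and 910 of all genes tested. After adjustment edgeR called 0 of 33 differences in each of these lines, and DESeq2 also called 0. Over all genes, 0.0387% differed in shCDK8 (0.00644% higher, 0.0322% lower) and 0.0322% in shTIP60 (0.00644% higher, 0.0258% lower). For HSPA5 the difference from shNT was -0.38 ± 0.29 in shCDK8 and 0.35 ± 0.29 in shTIP60, and for HERPUD1 it was -0.36 ± 0.32 and -0.05 ± 0.31, so responses of shCDK8 and shTIP60 were not shown to equal that of shNT.

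**Figure D3:**
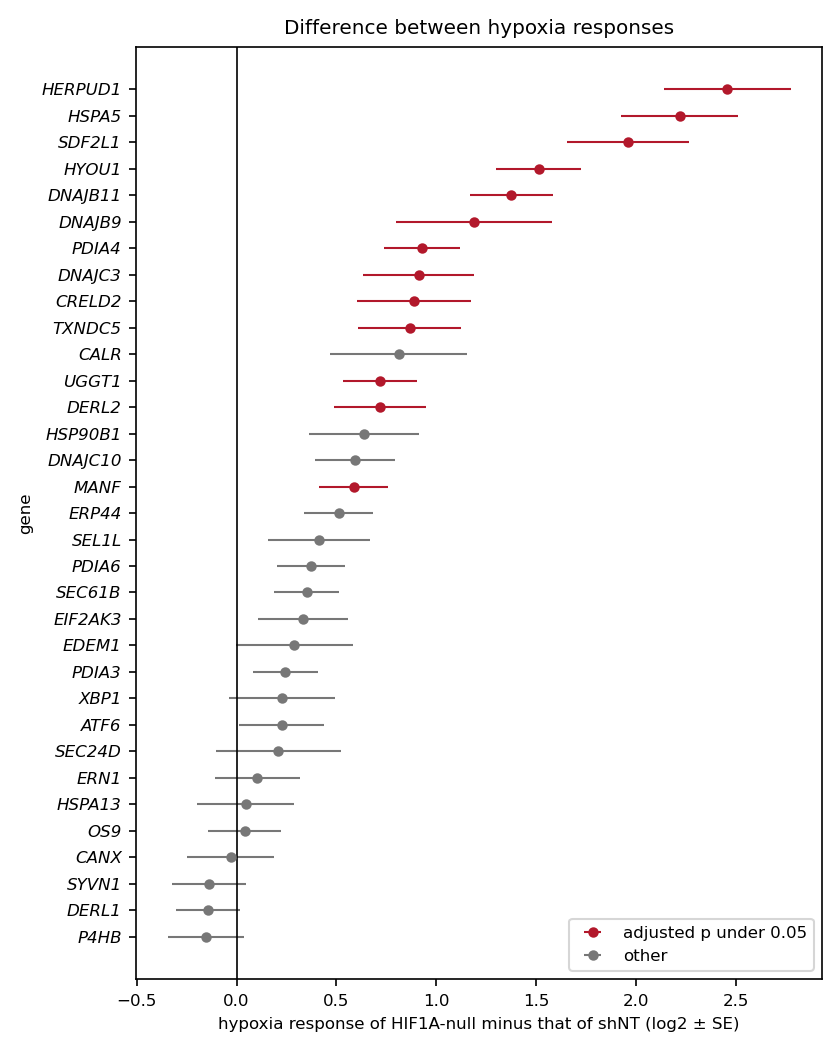
Difference between the hypoxia responses of HIF1A-null and shNT on the log2 scale (x axis, points with SE) for each of the 33 genes, in red where the adjusted p was under 0.05. HERPUD1 (2.46) and HSPA5 (2.22) lead, and P4HB lies lowest at -0.15.

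Compared at the same oxygen, few genes of the set were called between lines in normoxia, which does not show that levels were equal. The largest log2 differences in HIF1A-null (0.70, SEC24D) and in shTIP60 (0.58, HERPUD1) did not pass. Against shNT in normoxia, edgeR called 0 of 33 genes in HIF1A-null (11.7% of all genes differed, 5.86% higher and 5.86% lower). At an unadjusted p under 0.05 there were 2 (3770 of all genes), and DESeq2 called 1 (2205 of all genes). In shCDK8 normoxia 1 gene was higher, DNAJC10 (0.56 ± 0.14, adjusted p = 0.0136; 13.1% of all genes differed, 5.80% higher and 7.27% lower), and this call was lost without shNT normoxia library A or shCDK8 normoxia library B (adjusted p up to 0.139). In shTIP60 normoxia HYOU1 (0.49, adjusted p = 0.0305) and ATF6 (0.48, adjusted p = 0.0356) were higher (2 genes; 18.4% of all genes differed, 10.3% higher and 8.13% lower), and each lost its call without any of the 4 libraries compared (adjusted p up to 0.195). In hypoxia 21 of 33 genes were higher in HIF1A-null than in shNT and the other 12 did not pass, where 41.1% of all genes differed and 20.3% were higher. The median log2 difference in level was 0.64 over the 33 genes and 0.00 over all genes. HERPUD1 was higher by 2.79 ± 0.23, HSPA5 by 2.39 ± 0.21, SDF2L1 by 2.28 ± 0.22, HYOU1 by 1.58 ± 0.15 and DNAJB11 by 1.52 ± 0.15. Without TMM factors 18 genes of the set were higher and 1 lower in HIF1A-null hypoxia, where 2317 of all genes were higher and 4008 lower.

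In shCDK8 hypoxia 8 genes were higher than in shNT and 1 was lower, where 27.9% of all genes differed, 14.4% were higher and 13.4% lower. CRELD2 (0.93), DNAJC10 (0.84), SDF2L1 (0.81), HYOU1 (0.68), UGGT1 (0.68), DNAJB11 (0.61), SEC61B (0.58) and EIF2AK3 (0.46) were higher and EDEM1 (-0.78, adjusted p = 0.0107) was lower, a call lost without shNT hypoxia library B or shCDK8 hypoxia library A (adjusted p up to 0.148). EIF2AK3 lost its call without any 1 of 10 libraries (adjusted p up to 0.184), SDF2L1 (0.128) and DNAJB11 (0.0781) without shNT hypoxia library B or 1 shCDK8 hypoxia library, and CRELD2 without shNT hypoxia library B (0.058). Without shNT hypoxia library B 5 genes were called. In shTIP60 hypoxia 5 genes were higher than in shNT, HYOU1 (0.97), DNAJC10 (0.62), HSPA5 (0.59), DNAJB11 (0.58) and UGGT1 (0.47), and ERN1 was lower (-0.45, adjusted p = 0.0442), where 21.8% of all genes differed, 11.3% were higher and 10.5% lower. The ERN1 call was lost with relative log expression size factors and without TMM factors, which left 5 genes higher and none lower, and HSPA5 lost its call without any 1 of 10 libraries (adjusted p up to 0.241). The calls of UGGT1 (0.179) and DNAJB11 (0.117) were lost without any 1 of 3 hypoxia libraries, and that of DNAJC10 without any 1 of 2 (0.0812). The count was 3, 2 and 1 without shNT hypoxia library B, shTIP60 hypoxia library A and shTIP60 hypoxia library B. These comparisons share the shNT libraries.

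Across the 8 groups, HIF1A-null hypoxia had the highest mean level for 26 of 33 genes, as it did for 19.8% of all genes tested. For 19 of them both of its libraries lay above all other 14 libraries, as they did for 9.07% of all genes tested. SEC61B, DNAJC10 and CRELD2 were highest in shCDK8 normoxia, P4HB and HSPA13 in shTIP60 hypoxia, CANX in shNT hypoxia and DERL1 in shCDK8 hypoxia. The shNT hypoxia group had the lowest mean for 9 of 33 genes, against 13.6% of all genes tested. For 4 of them, SDF2L1, DNAJB11, UGGT1 and DNAJC10, both of its libraries lay below the other 14, against 4.82% of all genes tested. The summed CPM of the set was 17486 and 22238 in HIF1A-null hypoxia, 9481 to 11842 in the other hypoxia libraries and 6708 to 8237 in normoxia. Without HSPA5 the sums were 12555.5 and 14228 in HIF1A-null hypoxia, 8633 to 10063 in the other hypoxia libraries and 6009 to 7545 in normoxia, the same order of groups.

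Per kilobase of canonical transcript (RPKM), HSPA5 was at 1650.1 RPKM in HIF1A-null hypoxia against 159 RPKM in shNT normoxia, CALR at 1453 against 742 RPKM, P4HB at 1135 against 607 RPKM and HSP90B1 at 698 against 286 RPKM. By the mean of the libraries, HSPA5 thus had the highest level per length in HIF1A-null hypoxia, whereas CALR had it in shNT normoxia. The SD in HIF1A-null hypoxia was 555 RPKM for HSPA5 and 11.6 RPKM for CALR. In shNT normoxia it was 252 RPKM for CALR and 31.7 RPKM for P4HB. Neither order held in every library of its group. The sensors were among the lowest, with ERN1 at 3.33 RPKM in HIF1A-null hypoxia against 1.30 RPKM in shNT normoxia and EIF2AK3 at 6.85 against 2.90 RPKM. DNAJC10 was at 3.91 against 3.14 RPKM.

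HIF1A-null hypoxia libraries also stood apart in technical measures. Their TMM factors were 0.862 and 0.864, the lowest of the 16, with 0.862 to 0.965 in hypoxia and 1.01 to 1.12 in normoxia over all lines. Protein-coding genes with a single exon (226 tested) had a median log2 fold change by hypoxia of -0.42 in HIF1A-null, -0.07 in shCDK8, -0.15 in shTIP60 and -0.08 in shNT. The part of these measures in the results was not tested. Their 2 libraries differed from each other, with library B above library A for HSPA5, HERPUD1, DNAJB9 and DNAJC3.

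The lists beyond the set, also named for known roles with earlier results of these data known, showed which neighbouring pathways moved beside it, with medians and calls on the TMM scale alone. The list called the PERK-ATF4-CHOP branch is named for known roles, and whether PERK acted on its genes here was not tested. Of its 13 genes tested, 11 rose in HIF1A-null with a median of 1.61 on the log2 scale. In shCDK8 3 rose and 1 fell (median 0.07), in shTIP60 6 rose and 1 fell (0.30), and in shNT 4 rose and 1 fell (0.10). The signed response was higher in HIF1A-null than in shNT for 11 of the 13. DDIT3 (CHOP, a factor linked to cell death under ER stress) had 453 and 618 CPM in HIF1A-null hypoxia against 16.5 and 21.3 CPM in HIF1A-null normoxia, and 43.6 and 78.3 CPM in shNT hypoxia against 14.01 and 13.5 CPM in shNT normoxia. It rose by 4.83 in HIF1A-null, 1.08 in shCDK8, 2.18 in shTIP60 and 2.15 in shNT, with a difference between HIF1A-null and shNT of 2.68 ± 0.40 (adjusted p = 4.99e-04). The stress factor ATF3 rose by 3.54, 1.00, 1.21 and 2.06 in HIF1A-null, shCDK8, shTIP60 and shNT. SESN2, an ATF4 target that restrains growth signalling, rose by 2.38 in HIF1A-null, 0.46 in shTIP60 and 0.50 in shNT, with 0.24 in shCDK8 not past the threshold.

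Cytosolic heat shock chaperones moved against the set in 3 lines. Of 18 genes, 10 fell in shCDK8 (median -0.51), 11 in shTIP60 (-0.72) and 12 in shNT (-0.85), while in HIF1A-null 4 rose and 1 fell (0.22, smaller in size than the shift of -0.28 that all genes showed without TMM factors). The response in HIF1A-null was higher than in shNT for 13 of them. DNAJB1, a cytosolic Hsp40, rose by 1.23 in HIF1A-null and had -0.30, -0.07 and -0.25 in shCDK8, shTIP60 and shNT, none past the threshold. DNAJA1 fell in all lines, by 0.83 in HIF1A-null, 1.15 in shCDK8, 1.32 in shTIP60 and 1.73 in shNT. HSP90AB1 rose in HIF1A-null (0.59), with -0.03, 0.02 and -0.01 in shCDK8, shTIP60 and shNT.

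Other lists of the secretory pathway were mixed. Among 30 other folding and redox enzymes, 14 rose and 6 fell in HIF1A-null (median 0.45), 7 rose and 5 fell in shCDK8 (-0.01), 8 rose and 7 fell in shTIP60 (0.21), and 8 rose and 7 fell in shNT (0.01). ERO1L, the oxidase that recharges P4HB and a known hypoxia-inducible gene, rose least in HIF1A-null, by 1.03 against 1.65 in shCDK8, 2.43 in shTIP60 and 2.07 in shNT, a difference between HIF1A-null and shNT of -1.04 ± 0.18 (adjusted p = 0.00116). PDIA5 rose in all lines (0.98, 0.47, 0.66 and 0.42 in the order HIF1A-null, shCDK8, shTIP60, shNT), and CNPY2 fell in all (-1.80, -0.71, -0.69 and -0.68). Among 20 COPII coat genes 8 rose and the rest did not pass in HIF1A-null (0.40), 5 rose and 3 fell in shCDK8, 6 rose and 3 fell in shTIP60, and 6 rose and 4 fell in shNT. SEC31A rose by 0.99 in HIF1A-null, 0.90 in shCDK8, 0.55 in shTIP60 and 0.84 in shNT, and SEC24C by 0.65, 0.59, 0.55 and 0.66 in the same order. Among 30 N-glycosylation genes 12 rose and 8 fell in HIF1A-null (0.30), 5 rose and 4 fell in shCDK8, 7 rose and 5 fell in shTIP60, and 6 rose and 5 fell in shNT. LMAN1, a cargo receptor for glycoproteins, rose by 1.20, 0.64, 1.13 and 1.21 in HIF1A-null, shCDK8, shTIP60 and shNT.

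For 33 other genes of ER-associated degradation 6 rose and 7 fell in HIF1A-null (0.04), 4 rose and 1 fell in shCDK8 (-0.07), 5 rose and 10 fell in shTIP60 (0.00), and 6 rose and 10 fell in shNT (-0.10). The shares of this list in HIF1A-null were near those of all genes tested (18.9% rose, 19.1% fell). Among 26 translocation and signal peptide genes 6 rose and 2 fell in HIF1A-null (0.17), 3 rose and 2 fell in shCDK8, 4 rose and 4 fell in shTIP60, and 3 rose and 5 fell in shNT. SERP1, which stabilises the translocon under stress, rose in HIF1A-null (0.70) and shTIP60 (0.44), with -0.07 in shCDK8 and 0.13 in shNT not past the threshold. Among 16 other sensors, proteases and response factors 4 rose and 3 fell in HIF1A-null, 3 rose and 1 fell in shCDK8, 3 rose and 1 fell in shTIP60, and 3 rose and 3 fell in shNT. CREB3L2, an ER-bound transcription factor related to ATF6, rose in all lines (1.501, 1.10, 1.27 and 1.36 in HIF1A-null, shCDK8, shTIP60 and shNT), and CREB3L4 fell in HIF1A-null alone of the 4 comparisons (-0.95; difference from shNT -0.97 ± 0.21, adjusted p = 0.00544).

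**Figure D4:**
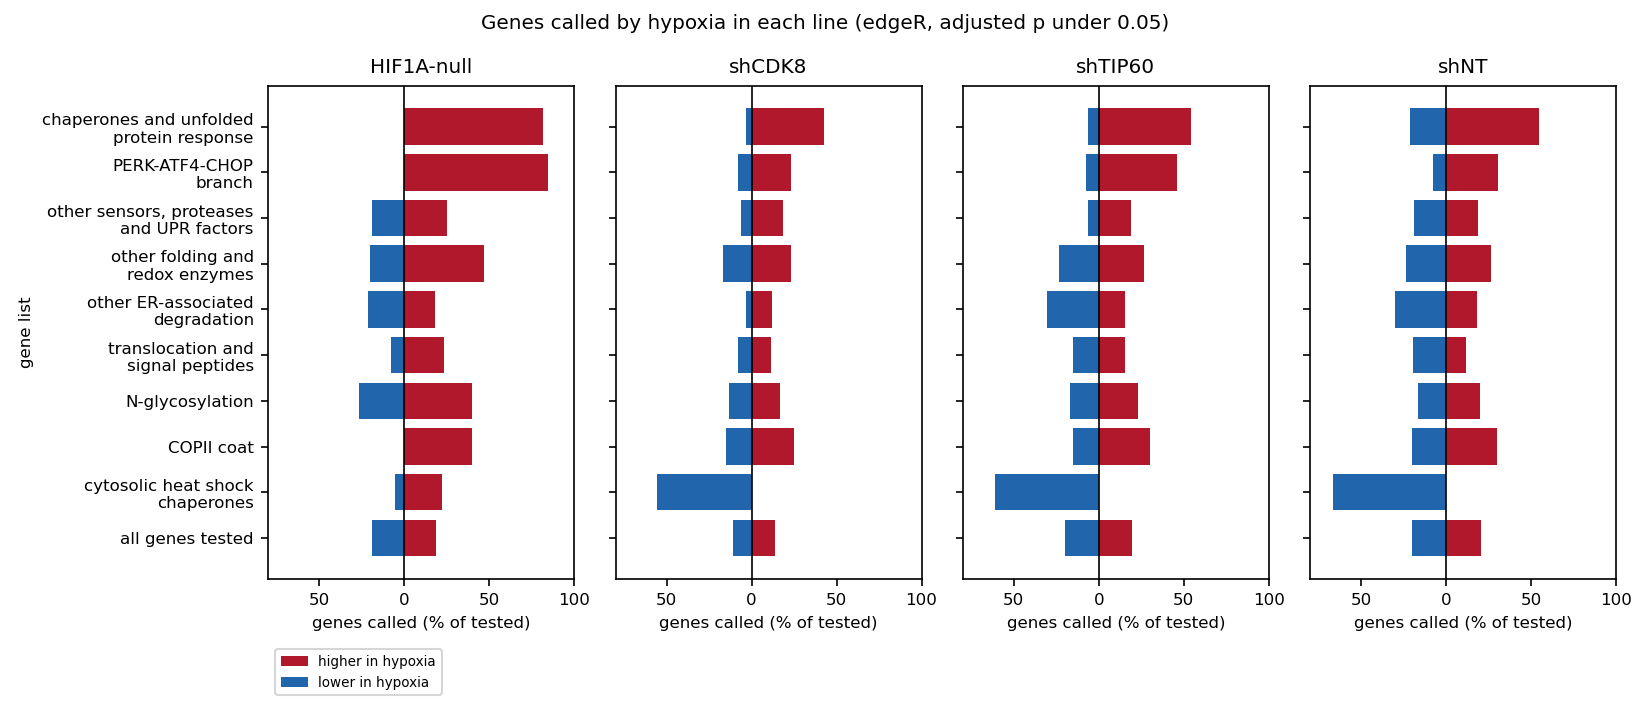
Share of genes tested that rose (red, to the right) or fell (blue, to the left) in hypoxia, in percent, for the set of 33, the 8 other lists and all 15520 genes tested, in HIF1A-null, shCDK8, shTIP60 and shNT. In HIF1A-null the set (27 of 33) and the PERK-ATF4-CHOP branch (11 of 13) have the largest red shares, and cytosolic heat shock chaperones show blue shares alone in the other 3 lines.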

How the data were processed

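Poly(A) RNA libraries were sequenced on an Ion Torrent Proton, per the labels. The deposited values are whole-number read counts per gene; for the authors' steps the submitters' processing notes name the genome hg19, the aligner GSNAP, the counter HTSeq 0.5.4p5, and DESeq 1.14.0 run under R 3.0.3. The annotation, strand setting and read filters are not given in the sources used here. Totals ran from 26620086 to 39401494 counts, so a floor of 3 counts equals 0.0716 to 0.112 CPM, which covers counting error only. Libraries were grouped by the labels, and the 2 of a group are called A and B by the number series in the column names.

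Genes were filtered with filterByExpr (15520 of 23669 kept), scaled by TMM and fitted over all 8 groups with edgeR 4.0.16 (quasi-likelihood test, limma 3.58.1, R 4.3.3), with Benjamini-Hochberg adjustment over all genes tested and a threshold of 0.05. Response differences are interaction contrasts. The p-values measure the spread between these libraries, which the series' design text calls biological replicates. Alternatives were DESeq2 1.42.0, other scalings and filters, a test against a 1.5-fold change, fits of the compared groups alone, a replicate block and leaving out each library.

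The 34 genes and 8 further lists (191 genes) were chosen with earlier results of these data known. All 4 sensor genes, and the 2 genes of each role with the smallest p for the response difference between HIF1A-null and shNT, are given in every library. Up to 3 genes of each further list were eligible for naming, those with the smallest adjusted p among the genes called in HIF1A-null hypoxia. HIF1A, CDK8 and KAT5 served as checks. RPKM divides CPM by canonical transcript length. Gene coordinates are GRCh37; promoter windows are GRCh38.p14 from RefSeq.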

Additional observations from a re-analysis of the deposited data

Results flagged for a closer look

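For 13 genes of the set, the hypoxia response in HIF1A-null cells differed from that in shNT cells by the test of the difference itself (edgeR, adjusted p under 0.05). All 13 differences, given as log2 response in HIF1A-null minus log2 response in shNT, were positive. Among lumenal chaperones they were 2.22 for HSPA5, 1.96 for SDF2L1, 1.51 for HYOU1 and 0.72 for UGGT1. Among Hsp40 cochaperones they were 1.38 for DNAJB11, 1.19 for DNAJB9 and 0.91 for DNAJC3. The disulfide isomerases PDIA4 and TXNDC5 had differences of 0.93 and 0.87, and the secreted proteins CRELD2 and MANF had 0.89 and 0.59. In ER-associated degradation HERPUD1 had 2.46 and DERL2 0.72.

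SDF2L1 and DNAJB11 were higher in hypoxia in HIF1A-null and lower in hypoxia in shNT, in both libraries of each group.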

How the results depend on the processing

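No call on a gene of the set changed direction under any of the 24 alternatives. The response differences of HERPUD1, HSPA5, SDF2L1, HYOU1 and DNAJB11 passed under all of them, and that of PDIA4 under 23 (adjusted p = 0.154 in the test against a 1.5-fold change). Against a 1.5-fold change, the genes called for hypoxia were 15 in HIF1A-null, 4 in shCDK8, 8 in shTIP60 and 6 in shNT, where 1895, 589, 1726 and 1962 of all 15520 genes passed. The same test called 0 in shCDK8 and 0 in shTIP60 against shNT in normoxia, where 632 and 835 of all genes passed. In hypoxia it called 9 in HIF1A-null, 0 in shCDK8 and 1 in shTIP60 against shNT, where 2306, 1019 and 934 passed. It called 5 response differences of HIF1A-null (580 of all genes). Without a filter on low counts 1 gene was called in HIF1A-null against shNT in normoxia (2194 of all genes). The same fit called 1 response difference of shTIP60 (SDF2L1, beside 106 of all genes). DESeq2 called 5 genes in shTIP60, 2 in shCDK8 and 1 in HIF1A-null against shNT in normoxia, where 3116, 2382 and 2205 of all genes passed. It called 14 in shCDK8 against shNT in hypoxia (4656 of all genes). Fits of the compared groups alone called 10 in shTIP60 against shNT in normoxia (4830 of all genes) and 6 response differences of HIF1A-null (1030 of all genes). The cause was not tested.

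A replicate block by library number series, added after seeing the data, called 7 genes in shTIP60, 2 in shCDK8 and 1 in HIF1A-null against shNT in normoxia, where 4287, 3264 and 2959 of all genes passed. It called 12 in shTIP60 and 16 in shCDK8 against shNT in hypoxia (4988 and 6038 of all genes), and 17 response differences of HIF1A-null and 1 of shCDK8 (CRELD2; 4187 and 532 of all genes). Of 429 results on single genes, 43 passed only with the block and 0 only without it. Deviations of same-series libraries correlated at 0.0307 to 0.336 over 28 pairs of groups, 18 of them above 0.1. All 28 were positive but not every one was above 0.1. The library numbers form 2 separate runs, each with 1 library of every group, while the labels name no shared batch. The series was not taken as a pairing in the main fit, and whether it marks a shared step was not tested.

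Leaving out each library in turn, the genes called for hypoxia ranged from 21 to 27 in HIF1A-null, 5 to 15 in shCDK8, 13 to 21 in shTIP60 and 17 to 26 in shNT. Against shNT in normoxia they ranged from 0 to 1 in HIF1A-null, 0 to 1 in shCDK8 and 0 to 3 in shTIP60, and in hypoxia from 18 to 24, 5 to 12 and 1 to 7 in the same order. Response differences ranged from 6 to 14 in HIF1A-null and stayed at 0 in shCDK8 and shTIP60. Counts over all genes tested also moved when a library was left out, so these ranges do not describe the set alone. With 2 libraries per group, small differences may lie under what these tests can detect.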

Other observations

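Further genes of the PERK-ATF4-CHOP branch, named after their values were seen, rose in HIF1A-null cells. CHAC1, which degrades glutathione, rose by 2.74 on the log2 scale in HIF1A-null and 0.91 in shTIP60, with 0.54 in shCDK8 and 0.51 in shNT not past the threshold. ASNS, the asparagine synthetase, rose by 2.33 in HIF1A-null, with -0.17, -0.22 and -0.29 in shCDK8, shTIP60 and shNT not past the threshold. ATF4 itself rose by 1.137 in HIF1A-null, with 0.10 in shNT not past the threshold. The differences between HIF1A-null and shNT were 2.23 ± 0.30 for CHAC1 (adjusted p = 1.89e-04), 2.62 ± 0.35 for ASNS (adjusted p = 1.89e-04) and 1.04 ± 0.21 for ATF4 (adjusted p = 0.00336), by edgeR's quasi-likelihood test.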
